A study of Mus musculus with 35 samples.

Results

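The response to IL-17 of primary mouse cardiac fibroblasts (CFs) carrying IAMP-siR-2 (siR-2) was measured by RNA-Seq in 6 of the 35 libraries of the series, 3 of untreated cells and 3 of cells given IL-17. siR-2 is an siRNA against 4930523C07Rik (ENSMUSG00000090394), which lies at chr1:160044382-160080208 of GRCm38 on the plus strand and encodes the micropeptide IAMP. The libraries were taken by their labels alone, with no measured value used, and the comparison covered every gene of the joined tables. Of 55487 genes listed, 21219 had enough estimated counts to be tested. The CFs came from mice aged 8 weeks. Cells of the IL-17 group had siRNA for 24 h and then IL-17 for 24 h. The labels give no time for the untreated group, and no strain, sex or dose of IL-17 was found for either. Cells with a Scrambled siRNA (Scrambled) and with a second siRNA against the same transcript, IAMP-siR-1 (siR-1), were each grown untreated and with IL-17, with 3 libraries a group, and are used here for comparison. Every library carries an siRNA, so none shows the response of untransfected CFs, and an siRNA lowers a transcript without removing its gene. The untreated and the IL-17 libraries stand in separate tables, so stimulus and table cannot be told apart within a response. A shift common to all libraries of a table drops out where responses of different siRNAs are compared. Nothing in the labels says that libraries of a group came from separate cultures or animals, so the p values measure the spread between these libraries, which may be technical.

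IL-17 is a cytokine made mainly by T cells of the Th17 type and by γδ T cells, and it acts on fibroblasts and epithelial cells. It binds a receptor of IL-17RA and IL-17RC, which recruits the adaptor Act1 (Traf3ip2) and the ubiquitin ligase TRAF6. NF-κB and the C/EBP factors are then switched on, and messengers of chemokines and cytokines that would decay quickly are kept from decay. The target genes recruit neutrophils and monocytes, and the feedback genes Nfkbia, Tnfaip3 and Zc3h12a (Regnase-1, a nuclease that cuts inflammatory messengers) limit the response. Fibroblasts are among the cells known to make IL-6 and chemokines when IL-17 reaches them.

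The 6 siR-2 libraries held 115956100 to 118812722 estimated counts each, and 2.27% to 2.46% of these fell on mitochondrial genes. Across 13102 genes, log CPM of 2 libraries of the same group had a Pearson r of 0.9936 to 0.9948, and of an untreated and an IL-17 library 0.9844 to 0.9871. Levels are given as CPM, the share of a library's estimated counts after TMM scaling, in the order of replicates 1, 2 and 3. The 4930523C07Rik transcript stood at 1.75, 1.83 and 1.87 CPM in the untreated siR-2 libraries and at 1.87, 1.68 and 1.66 CPM with IL-17. Scrambled held 22.0 to 25.7 CPM untreated and 16.8 to 20.7 CPM with IL-17, so all 6 siR-2 libraries lay below all 6 Scrambled libraries. Its level under siR-2 overlapped between untreated and IL-17 cells (log2 fold change −0.07, adjusted p = 0.857). Of the Scrambled libraries, untreated replicate 3 and IL-17 replicates 1 and 3 held 89.1 to 133 CPM over 12 hepatocyte genes, against 0.237 to 3.18 CPM in the other 15 libraries. Some differences from Scrambled are therefore also given without these 3 libraries. That leaves 2 untreated and 1 IL-17 library of Scrambled, so only the size of the difference is given for that fit.

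The siR-2 libraries expressed the defining fibroblast genes, with a sum over 13 markers of 22720 to 23050 CPM untreated and 22280 to 22990 CPM with IL-17. None of the 13 was called, 1 was higher and 4 were lower with an adjusted p up to 0.05. Over all genes tested 6.67% were higher and 7% lower by that limit. Unadjusted p values under 0.05 in edgeR numbered 2 higher and 6 lower, and DESeq2 called 0. Dcn, the matrix proteoglycan decorin, was the higher one, with 1100, 1090 and 1102 CPM untreated and 1459, 1459 and 1483 CPM with IL-17. Tcf21, a transcription factor of the fibroblast lineage, was lower, with 158 to 177 CPM untreated and 112 to 119 CPM with IL-17. Markers of other cells were low. Ly6g, Retnlg, Ngp and Elane of neutrophils and Cd3e, Cd3d, Cd3g and Cd2 of T cells were at 0 in all 6 libraries, and Myh6 of cardiomyocytes was at 0 too. The 8 neutrophil markers, of which 2 had enough reads to be tested, summed to 0.155 to 0.385 CPM untreated and 0.687 to 0.912 CPM with IL-17. The 10 cardiomyocyte markers summed to 27.8 to 33.05 CPM untreated and 23.6 to 25.9 CPM with IL-17, and 1 of 6 tested was lower with an adjusted p up to 0.05. The 6 T cell markers summed to at most 0.299 CPM. The 12 macrophage markers summed to 79.2 to 81.0 CPM untreated and 80.6 to 89.1 CPM with IL-17. A sum over 6 pericyte markers was 52.8 to 64.8 CPM untreated and 75.7 to 83.3 CPM with IL-17, and 3 of the 6 were higher with an adjusted p up to 0.05. A sum over 6 mesothelial markers was 87.4 to 93.1 CPM untreated and 68.8 to 71.8 CPM with IL-17, and 4 of the 6 were lower. In bulk RNA, fewer cells of a type and less RNA per cell cannot be told apart, and the part of these cells in the results below was not tested.

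With IL-17, siR-2 CFs had higher levels of 17 of 25 IL-17 target genes, 10 of 24 chemokines and 11 of 23 NF-κB genes, and more genes were called higher than lower. A gene was called where edgeR's quasi-likelihood test gave a Benjamini-Hochberg adjusted p up to 0.05 and the log2 fold change was 1 or more in size. Of the genes tested, 259 (1.22%) were called higher and 102 (0.481%) lower. At least 4-fold changes were found for 97 of the higher and 24 of the lower genes. Among these called genes, all 3 IL-17 libraries lay above all 3 untreated libraries for 253 of the 259, and below for 92 of the 102. The share over all genes tested was not counted, and called genes are picked for a large change, so this adds no support to the calls. With an adjusted p up to 0.05 alone, 6.67% of the genes tested were higher and 7% lower. The median log2 fold change over all genes tested was 0.0011. Protein coding genes made up 208 of the higher genes (80.3%) and 73 of the lower genes (71.6%), against 73.6% of the genes tested. Some calls rest on low levels: 67 of the higher and 50 of the lower genes stayed below a mean of 1 CPM in both siR-2 groups. Of the 259 and the 102, 21 and 18 had a siR-2 group at 0. The same shares over all genes tested were not counted, so whether low levels were commoner among the calls is not known.

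**Figure D1:**
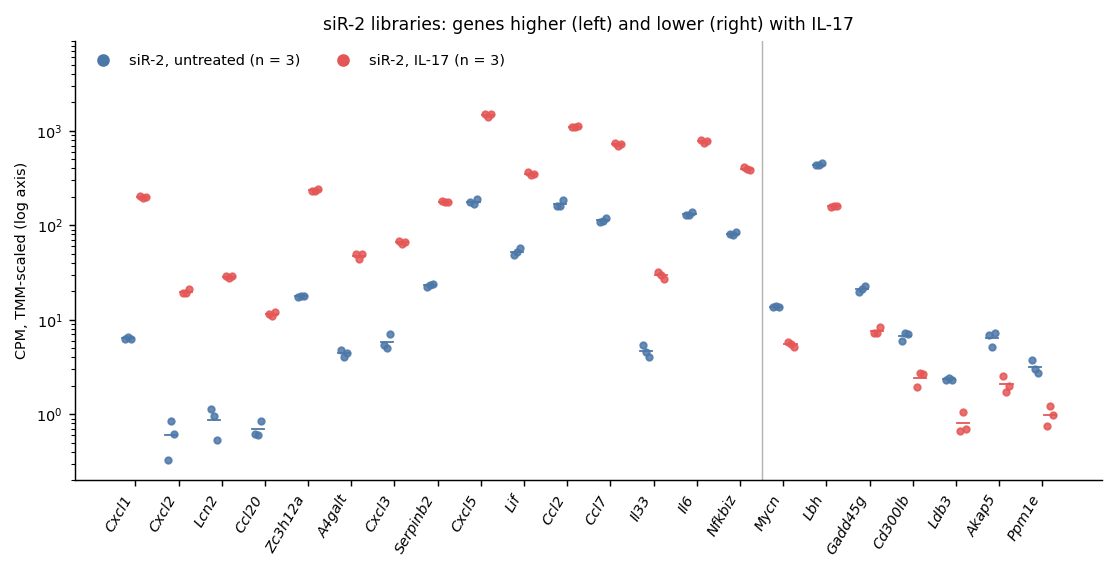
Levels in CPM (log axis, TMM-scaled) of 15 genes called higher and 7 called lower with IL-17 in the siR-2 libraries. Each point is a library (n = 3 a group) and each short line a group mean. For each gene the 3 IL-17 libraries lie all on one side of the 3 untreated libraries, as for Cxcl1 with 6.29 to 6.58 CPM untreated and 193 to 204 CPM with IL-17.

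Predicted genes and genes whose libraries overlapped between the groups were left out of the rankings of rises and falls. The largest rise by fold among called genes reaching 1 CPM was that of Nos2, inducible nitric oxide synthase. It measured 0.128, 0.0947 and 0 CPM untreated and 38.1, 33.2 and 36.4 CPM with IL-17 (log2 fold change 8.89, SE 0.44, adjusted p = 6.42e-09). The untreated libraries lay at or below 0.155 CPM, the value of 3 read pairs, so the fold change rests on a few reads while the IL-17 level does not. Csf2, which encodes the growth factor GM-CSF, stood at 0.103, 0 and 0.181 CPM untreated and at 4.10, 4.62 and 4.32 CPM with IL-17 (log2 fold change 5.51, SE 0.59). Penk, the precursor of enkephalins, and Saa3, an acute phase serum amyloid, started as low and reached 3.34 to 4.17 CPM and 2.19 to 2.84 CPM. Shisa3, a gene of the Shisa family, was at 0.0427, 0 and 0 CPM untreated and at 1.45, 1.06 and 1.38 CPM with IL-17, and no fold is given for it. Sprr2e, a small proline-rich protein of the epithelial barrier, went from 0.205, 0.568 and 0.353 CPM to 7.54, 7.66 and 8.33 CPM (log2 fold change 4.38, SE 0.49).

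Of 27 genes listed as IL-17 targets, 25 were tested. Of these, 17 were called higher and none lower, beside 1.22% and 0.481% of all genes tested. The median log2 fold change of the 25 was 2.67, beside 0.0011 over all genes tested. Il1b, with at most 6 estimated counts in any of the 6 libraries, and S100a9, at 0, could not be tested. The 8 tested members without a call were Mmp13, Cfb, C3, Mmp3, Mmp9, S100a8, Tnf and Il19. Tnf, the tumor necrosis factor gene, was at 0 to 0.0603 CPM untreated and at 0.0870 to 0.209 CPM with IL-17 (adjusted p = 0.411). S100a8, a calcium-binding alarmin, was at 0.336 to 0.522 CPM untreated and 0.576 to 0.899 CPM with IL-17 (adjusted p = 0.63). Csf3, the growth factor G-CSF, was called, reaching 0.654 to 1.10 CPM with IL-17 from almost no reads. C3, the central complement component, was at 71.1 to 79.6 CPM untreated and 93.0 to 104 CPM with IL-17 (adjusted p = 0.131), with no overlap of the libraries.

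CXC chemokines that attract neutrophils rose together. Cxcl1 measured 6.29, 6.58 and 6.33 CPM untreated and 204, 193 and 198 CPM with IL-17, a 31.0-fold rise (log2 fold change 4.95, SE 0.12, adjusted p = 1.41e-12). Cxcl2 went from 0.325, 0.853 and 0.621 CPM to 19.3, 19.0 and 21.2 CPM (log2 fold change 5.05, SE 0.37). Cxcl3 went from 5.39, 4.97 and 7.08 CPM to 68.3, 62.8 and 66.9 CPM (log2 fold change 3.51, SE 0.14). For each the lowest IL-17 library stood several times above the highest untreated one. Cxcl5, also called LIX, was already well expressed, with 175.5, 170 and 188 CPM untreated and 1512, 1391 and 1519 CPM with IL-17 (log2 fold change 3.05, SE 0.04, adjusted p = 1.11e-25). These 4 genes, all called higher, lie at chr5:90759360-90905938 of GRCm38. Cxcl15, a chemokine gene that lies there between Cxcl3 and Cxcl1, was at 0 in all siR-2 libraries.

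Chemokines for monocytes and other leukocytes rose too. Ccl2, or MCP-1, measured 159, 159 and 183 CPM untreated and 1105, 1088 and 1124 CPM with IL-17 (log2 fold change 2.73, SE 0.05). Ccl7, or MCP-3, measured 109, 110.1 and 121 CPM untreated and 735, 696 and 726 CPM with IL-17 (log2 fold change 2.67, SE 0.05). Both lie in a group of chemokine genes at chr11:82035571-82116799, where 3 of 5 genes were called, Ccl11 among them. Ccl11, the eosinophil chemokine eotaxin, rose from 0.385, 0.499 and 0.871 CPM to 3.30, 2.98 and 3.67 CPM. Ccl20, the ligand of CCR6 on Th17 cells, went from 0.624, 0.603 and 0.854 CPM to 11.6, 10.99 and 12.1 CPM (log2 fold change 4.06, SE 0.22). Cxcl16, a transmembrane chemokine, went from 21.7, 21.7 and 24.6 CPM to 79.4, 82.1 and 87.7 CPM (log2 fold change 1.87, SE 0.07). In all, 10 of 24 tested chemokines were called higher and 0 lower, beside 1.22% and 0.481% of all genes tested. The median log2 fold change of the 24 was 0.70. Cxcl12, a constitutive chemokine of stromal cells, was lower at an adjusted p of 0.00655, with 147 to 172 CPM untreated and 138 to 146 CPM with IL-17. In edgeR it was the 1 chemokine lower at an unadjusted p under 0.05, and DESeq2 called 0 lower.

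Among cytokines, Il6 measured 129.8, 128 and 139 CPM untreated and 797, 750.1 and 784 CPM with IL-17 (log2 fold change 2.56, SE 0.04, adjusted p = 2.07e-24). Lif, of the same family, measured 48.7, 51.6 and 57.5 CPM untreated and 364, 339 and 346 CPM with IL-17 (log2 fold change 2.73, SE 0.06). Il33, an alarmin of stromal cells, went from 5.41, 4.52 and 4.04 CPM to 31.9, 29.6 and 27.02 CPM (log2 fold change 2.66, SE 0.15). No library of one group overlapped the other for these 3 genes. The other members of the IL-6 family and of its JAK-STAT pathway moved less. Of 21 tested, Il6 and Lif were called higher, beside 1.22% of all genes tested, and the median log2 fold change was 0.21. With an adjusted p up to 0.05, 9 were higher and 2 lower, beside 6.67% and 7% of all genes tested. Osmr, the receptor of oncostatin M, was at 251 to 266 CPM untreated and 330 to 363 CPM with IL-17 (log2 fold change 0.44). Jak2, a kinase of the pathway, was at 78.4 to 79.7 CPM and 129 to 135 CPM (log2 fold change 0.74). Cish, an inhibitor of cytokine signalling, rose by 0.87 on the log2 scale. Socs3, the inhibitor that this pathway itself induces, was lower, at 34.9, 36.2 and 36.5 CPM untreated and 22.9, 22.9 and 25.5 CPM with IL-17 (log2 fold change −0.59, SE 0.07, adjusted p = 7.44e-07). The receptor chain Il6st was at 647 to 662 CPM untreated and 636 to 650.5 CPM with IL-17 (adjusted p = 0.793).

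The IL-17 receptor and its adaptors differed little between the groups, and the called members of this list were none of them receptors or adaptors. Il17ra measured 112, 118 and 108 CPM untreated and 100.2, 98.2 and 98.4 CPM with IL-17, a small fall (log2 fold change −0.18, adjusted p = 0.00152). Il17rc measured 23.5 to 25.8 CPM and 23.6 to 24.6 CPM (adjusted p = 0.922). Il17rd, a receptor family member that restrains the signal, fell from 10.2, 13.2 and 11.1 CPM to 8.68, 7.79 and 8.21 CPM (log2 fold change −0.48). Traf3ip2, which encodes Act1, rose from 22.0, 19.97 and 23.0 CPM to 29.8, 27.2 and 28.4 CPM (log2 fold change 0.40, adjusted p = 6.1e-05). Of 26 genes tested, 3 were called higher and 0 lower, beside 1.22% and 0.481% of all genes tested, and the median was 0.06. With an adjusted p up to 0.05, 12 were higher and 4 lower, beside 6.67% and 7% of all genes tested. At an unadjusted p under 0.05 in edgeR 5 were lower, and DESeq2 called 0 lower.

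The 3 called members were Zc3h12a, Nfkbiz and Tnfaip3. Zc3h12a measured 17.5, 18.04 and 17.9 CPM untreated and 229, 234 and 245 CPM with IL-17 (log2 fold change 3.73, SE 0.05, adjusted p = 9.04e-26). Nfkbiz encodes IκBζ, a nuclear partner of NF-κB needed for many IL-17 targets, and rose from 81.4, 78.8 and 84.7 CPM to 412, 392 and 387 CPM (log2 fold change 2.28, SE 0.03). Tnfaip3, or A20, a ubiquitin editing enzyme that limits NF-κB, rose from 31.3, 30.6 and 31.1 CPM to 65.4, 68.4 and 61.9 CPM (log2 fold change 1.07, SE 0.06). The C/EBP genes rose less. Cebpb, which encodes the factor C/EBPβ, measured 113, 114 and 124 CPM untreated and 143, 140.5 and 146 CPM with IL-17 (log2 fold change 0.29, SE 0.05). Cebpd, for C/EBPδ, measured 118, 126 and 119 CPM and 208, 204 and 216 CPM (log2 fold change 0.79, SE 0.04). Neither reached 2-fold, and for both the groups did not overlap.

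In the NF-κB list the called genes were subunits, inhibitors and targets, and no kinase was called. Of 23 tested, 11 were called higher and 0 lower, beside 1.22% and 0.481% of all genes tested. The median log2 fold change of the list was 0.66. With an adjusted p up to 0.05, 17 were higher and 1 lower, beside 6.67% and 7% of all genes tested. In edgeR the same 1 gene was lower at an unadjusted p under 0.05, and DESeq2 called 0 lower. Nfkb1, for the p105 precursor, measured 148, 152 and 148 CPM untreated and 370, 375 and 373 CPM with IL-17 (log2 fold change 1.32, SE 0.03). Rel, the c-Rel subunit, went from 11.6, 11.1 and 11.6 CPM to 25.1, 29.4 and 25.0 CPM (log2 fold change 1.21, SE 0.08). Nfkbia, the inhibitor IκBα, went from 21.01, 19.6 and 19.2 CPM to 48.0, 44.4 and 48.4 CPM (log2 fold change 1.24, SE 0.05). Each of these groups stood apart from the other. Rela, the p65 subunit, rose by only 0.20 on the log2 scale (adjusted p = 0.000475). The kinases gave 112 to 120 CPM untreated and 116 to 121 CPM with IL-17 for Chuk (adjusted p = 0.724), and 69.6 to 72.7 and 74.1 to 78.7 CPM for Ikbkb (adjusted p = 0.0559). Tnip3 and Tnip1, which bind A20, rose by 1.94 and 1.33 on the log2 scale, the signalling adaptor Traf1 by 1.69 and the adhesion molecules Icam1 and Vcam1 by 1.33 and 1.16. Bcl3, an atypical IκB that acts in the nucleus, rose from 16.4, 18.7 and 19.2 CPM to 37.2, 37.0 and 39.1 CPM (log2 fold change 1.06, SE 0.08). Cyld, a deubiquitinase that restrains the pathway, was the 1 lower gene, at 52.7 to 56.3 CPM untreated and 43.6 to 51.3 CPM with IL-17.

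The promoters of 4 called genes are shown because letters of an NF-κB type stand close to their start. Each is 300 bases, from 250 before the RefSeq start to 50 from it on, from RefSeq on GRCm38.p6. Capitals mark matches of an NF-κB-like motif on either strand, GGGA and CC with any 4 bases between them, and matches of the 2 strands overlap where the site is nearly symmetrical. Cxcl1 lies at chr5:90890995-90891294, Cxcl2 at chr5:90903649-90903948 and Il6 at chr5:30012864-30013163, all on the plus strand, and Bcl3 at chr7:19822706-19823005 on the minus strand.
Cxcl1: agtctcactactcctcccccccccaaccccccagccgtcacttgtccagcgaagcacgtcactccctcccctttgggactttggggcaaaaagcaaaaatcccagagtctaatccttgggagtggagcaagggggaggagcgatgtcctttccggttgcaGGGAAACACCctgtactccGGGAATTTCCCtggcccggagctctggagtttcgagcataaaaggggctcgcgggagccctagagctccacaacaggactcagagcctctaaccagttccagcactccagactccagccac
Cxcl2: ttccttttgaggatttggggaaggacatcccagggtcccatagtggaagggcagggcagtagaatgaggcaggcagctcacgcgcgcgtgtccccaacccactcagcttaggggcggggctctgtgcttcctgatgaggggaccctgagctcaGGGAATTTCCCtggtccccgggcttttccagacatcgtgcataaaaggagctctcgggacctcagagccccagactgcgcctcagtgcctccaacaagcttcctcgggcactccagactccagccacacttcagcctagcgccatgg
Il6: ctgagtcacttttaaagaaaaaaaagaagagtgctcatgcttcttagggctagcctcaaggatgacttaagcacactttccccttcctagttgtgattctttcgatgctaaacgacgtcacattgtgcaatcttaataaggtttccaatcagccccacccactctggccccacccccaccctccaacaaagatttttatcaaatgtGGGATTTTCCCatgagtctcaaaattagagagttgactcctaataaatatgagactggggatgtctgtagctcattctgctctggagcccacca
Bcl3: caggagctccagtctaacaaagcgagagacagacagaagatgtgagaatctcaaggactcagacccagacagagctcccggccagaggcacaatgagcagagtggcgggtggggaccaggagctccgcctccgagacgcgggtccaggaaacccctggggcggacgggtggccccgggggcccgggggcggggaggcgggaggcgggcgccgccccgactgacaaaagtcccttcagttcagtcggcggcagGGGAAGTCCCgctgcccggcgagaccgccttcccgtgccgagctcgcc
In Cxcl1 and Cxcl2 the same letters, GGGAATTTCC, stood 71 and 97 bases before the start, and Cxcl1 held a further match, GGGAAACACC, 90 bases before it. Il6 held GGGATTTTCC 44 bases before the start, and Bcl3 held GGGAAGTCCC at base 2 after it. Windows were found for 164 of the genes called higher, 207 windows in all, and 74 of them (35.7%) held a match. The share was 33.8% of 68 windows of genes called lower, 25.7% over windows of tested genes and 20.7% over all windows of this length. Letters TTGCNNAA of a C/EBP type, searched on both strands, stood in 15.9% of the windows of genes called higher, 8.82% of those called lower, 9.05% of those of tested genes and 10.8% of all. The windows of Lcn2, Zc3h12a, Saa3, Ptgs2 and Icam1 held no match of the first kind. A match is a description of the letters and no evidence of binding.

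**Figure D2:**
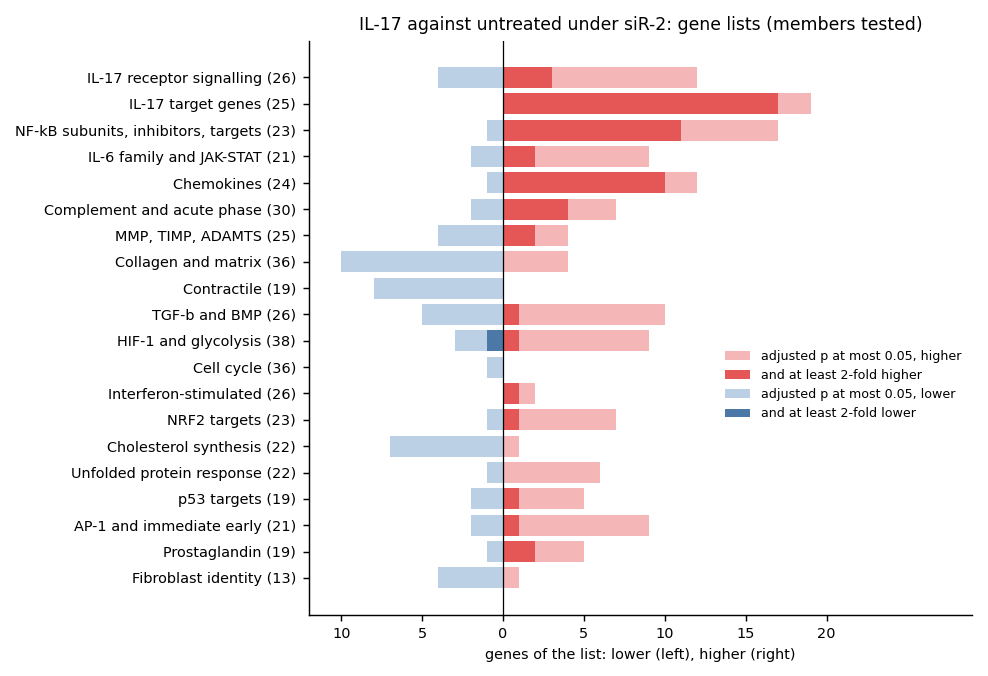
Number of genes of 20 lists that were higher (right) or lower (left) with IL-17 in the siR-2 libraries, with the number of members tested in brackets. Pale bars count an adjusted p up to 0.05 and dark bars those that also changed at least 2-fold. The IL-17 target list had 17 of 25 at least 2-fold higher, the NF-κB list 11 of 23 and the chemokines 10 of 24, and the contractile list had 8 of 19 lower and none past 2-fold. Over all genes tested, 1.22% were higher by both limits and 7% were lower by adjusted p alone.

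Acute phase, iron and prostaglandin genes held a few large rises. Lcn2, the iron-scavenging lipocalin NGAL, went from 1.13, 0.947 and 0.535 CPM to 29.03, 27.8 and 28.9 CPM (log2 fold change 5.04, SE 0.34). Ptx3, a soluble pattern receptor, measured 622, 625 and 671 CPM untreated and 2053, 2100.0 and 2068 CPM with IL-17 (log2 fold change 1.70, SE 0.03). Steap4, a metalloreductase, went from 1.32, 1.57 and 1.57 CPM to 17.8, 19.0 and 17.34 CPM (log2 fold change 3.601, SE 0.18). Of 30 complement and acute phase genes tested, 4 were called higher and 0 lower, beside 1.22% and 0.481% of all genes tested. Their median was 0.15, or 0.13 without 3 members that had a group at 0. At an unadjusted p under 0.05 in edgeR 2 were lower, and DESeq2 called 0 lower. Serping1, the C1 inhibitor, was at 317 to 367 CPM untreated and 335 to 359 CPM with IL-17 (adjusted p = 0.816).

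Ptgs2, or cyclooxygenase-2, measured 334, 335 and 359 CPM untreated and 1071, 983 and 957 CPM with IL-17 (log2 fold change 1.55, SE 0.06). Ptges, the enzyme that makes prostaglandin E2 from its product, went from 2.31, 2.28 and 2.12 CPM to 12.6, 9.73 and 13.6 CPM (log2 fold change 2.42, SE 0.14). Pla2g4a, the phospholipase that frees arachidonic acid, rose by 0.42 on the log2 scale. So 3 steps toward prostaglandin E2 rose, 2 of them past 2-fold, while Ptgs1 was at 118 to 132 CPM untreated and 108 to 118 CPM with IL-17 (adjusted p = 0.0765). Of 19 prostaglandin genes tested, these 2 were called higher, beside 1.22% of all genes tested. The median was 0.06, or 0.14 without a member that had a group at 0.

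No matrix gene reached 2-fold, and more of them were lower than higher. Collagen and matrix genes had a median log2 fold change of −0.04 and none of 36 was called, with 4 higher and 10 lower with an adjusted p up to 0.05, beside 6.67% and 7% of all genes tested. At an unadjusted p under 0.05 in edgeR 5 were higher and 14 lower, and DESeq2 called 0. Col1a1 measured 3207, 3342 and 3332 CPM untreated and 3253, 3132 and 3289 CPM with IL-17, and Col3a1 measured 7921 to 8062 CPM and 8008 to 8554 CPM. Both pairs of groups overlapped (adjusted p = 0.604 and 0.495). Tnc, the injury matrix protein tenascin-C, was the largest rise of the list, from 1285, 1392 and 1332 CPM to 2261, 2131 and 2150.0 CPM (log2 fold change 0.71, SE 0.04). Postn, periostin of activated fibroblasts, fell slightly, from 868, 857 and 940 CPM to 786, 818 and 822 CPM (log2 fold change −0.14, adjusted p = 0.00309). Ccn2, the growth factor CTGF, fell by 0.17 on the log2 scale (adjusted p = 0.0117).

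Contractile genes of myofibroblasts that passed the adjusted p were all lower. Of 19 tested none was called, 0 were higher and 8 lower with an adjusted p up to 0.05, beside 6.67% and 7% of all genes tested, and the median was −0.22. At an unadjusted p under 0.05 in edgeR 0 were higher and 9 lower, and DESeq2 called 0. Acta2, smooth muscle actin, measured 631, 592 and 614 CPM untreated and 529, 521 and 526 CPM with IL-17 (log2 fold change −0.22, SE 0.03, adjusted p = 7.52e-06). Tagln, transgelin, fell by 0.46 and Myl9, a myosin light chain, by 0.62 on the log2 scale. For these 3 genes all IL-17 libraries lay below all untreated libraries.

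Proteases of the matrix went both ways. Of 25 MMP, TIMP and ADAMTS genes 2 were called higher and 0 lower, beside 1.22% and 0.481% of all genes tested. The median of the list was −0.03. With an adjusted p up to 0.05, 4 were higher and 4 lower, beside 6.67% and 7% of all genes tested. At an unadjusted p under 0.05 in edgeR 6 were lower, and DESeq2 called 0 lower. Adamts9 and Adamts4, which cleave proteoglycans, rose, the first from 73.5, 69.7 and 70.4 CPM to 182, 170.3 and 175 CPM and the second from 6.47, 5.92 and 6.47 CPM to 16.1, 12.5 and 13.0 CPM. Mmp13, a collagenase, rose from 7.36, 6.86 and 6.45 CPM to 13.9, 13.0 and 14.4 CPM, just under the 2-fold limit (log2 fold change 0.998, adjusted p = 1.76e-06), and passed it when untreated replicate 1 or IL-17 replicate 2 was left out. Mmp3, the stromelysin, overlapped between the groups, at 1509, 1431 and 1664 CPM untreated and 1615, 1610 and 1692 CPM with IL-17 (adjusted p = 0.461). Timp3, an inhibitor of metalloproteinases, fell from 1269, 1309 and 1340 CPM to 870.0, 914 and 894 CPM (log2 fold change −0.55, SE 0.03). Adamts5, an aggrecanase, fell by 0.50 and Timp1 rose by 0.29 on the log2 scale.

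**Figure D3:**
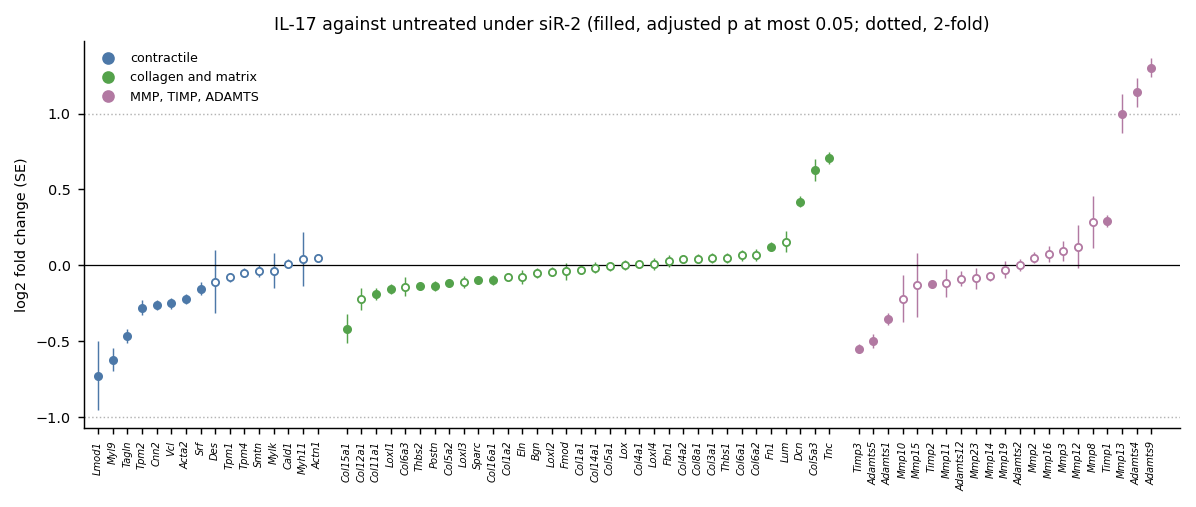
Log2 fold change with IL-17 under siR-2 (points, with SE as bars) of 71 tested contractile, collagen and matrix, and protease genes that had a mean of at least 1 CPM in one of the groups. Filled points passed an adjusted p of 0.05 and dotted lines mark 2-fold. Past the upper dotted line stand Adamts4 and Adamts9, at 1.14 and 1.30, with Mmp13 at 0.998 beside it, and no point passes the lower line.

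Growth factor and hypoxia genes were mixed. Of 26 TGF-β and BMP genes 1 was called higher, beside 1.22% of all genes tested, and the median was 0.04. With an adjusted p up to 0.05, 10 were higher and 5 lower, beside 6.67% and 7% of all genes tested. Grem1, a secreted antagonist of BMPs, rose from 6.31, 7.42 and 7.15 CPM to 18.9, 15.3 and 15.5 CPM (log2 fold change 1.25, SE 0.10). Bmp4, one of its ligands, fell from 18.3, 18.5 and 18.9 CPM to 9.09, 10.9 and 11.3 CPM (log2 fold change −0.83, SE 0.07). Inhba, a subunit of activin, rose by 0.55 and Tgfb3 fell by 0.47 on the log2 scale. Hif1a, the oxygen-regulated subunit of HIF-1, rose from 266, 271 and 278 CPM to 400.4, 404 and 409 CPM (log2 fold change 0.57, SE 0.03). Of 38 HIF-1 and glycolysis genes 1 was called higher and 1 lower, beside 1.22% and 0.481% of all genes tested, with a median of −0.03. Egln3, a prolyl hydroxylase that HIF-1 induces, was the higher one (log2 fold change 1.27) and Ankrd37 the lower one (−1.52). With an adjusted p up to 0.05 alone, 9 of the 38 were higher and 3 lower, beside 6.67% and 7% of all genes tested. The angiogenic factor Vegfa rose by 0.68 on the log2 scale. Hsp90aa1 and Hsp90ab1, chaperones of the HSP90 family, had log2 fold changes of 0.06 and 0.04 (adjusted p = 0.232 and 0.328).

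Oxidative stress (NRF2), p53 and early response lists each held 1 gene called higher, of 23, 19 and 21 tested, beside 1.22% of all genes. With an adjusted p up to 0.05 alone, 7 genes were higher and 1 lower in the first, 5 and 2 in the second, and 9 and 2 in the third. Over all genes tested these shares were 6.67% and 7%. Slc7a11, the cystine transporter, rose from 20.6, 22.9 and 22.5 CPM to 55.7, 56.6 and 53.1 CPM (log2 fold change 1.33, SE 0.08). Nfe2l2, which encodes NRF2 itself, rose by 0.79 on the log2 scale, and the median over 23 NRF2 targets was 0.04. Fas, the death receptor, rose from 22.7, 23.8 and 21.4 CPM to 43.7, 47.5 and 50.2 CPM, in a p53 list with a median of −0.01. Ier3 rose from 55.8, 57.3 and 59.8 CPM to 145, 127 and 135 CPM. Klf4, a transcription factor of the same early response list, fell from 81.6, 88.6 and 84.1 CPM to 46.7, 46.1 and 44.8 CPM (log2 fold change −0.89, SE 0.04). Interferon-stimulated genes gave 1 call of 26, Cxcl10, at 0.453, 1.19 and 1.26 CPM untreated and 5.595, 8.52 and 5.70 CPM with IL-17 (adjusted p = 0.0133). Irf1 was higher by 0.61, and Isg15 overlapped between the groups (adjusted p = 0.98).

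Cell cycle, cholesterol synthesis and unfolded protein response lists held no called gene. Their counts by adjusted p up to 0.05 stand beside 6.67% higher and 7% lower of all genes tested. Of 36 cell cycle genes 0 were higher and 1 lower with an adjusted p up to 0.05, with a median of −0.02. At an unadjusted p under 0.05 in edgeR 2 were higher and 3 lower, and DESeq2 called 0. Of 22 cholesterol genes 1 was higher and 7 lower, with a median of −0.12, and at an unadjusted p under 0.05 in edgeR 2 were higher and 11 lower, with 0 called by DESeq2. Of 22 genes of the unfolded protein response 6 were higher and 1 lower, with a median of 0.06, and at an unadjusted p under 0.05 in edgeR 7 were higher and 2 lower, with 0 called by DESeq2.

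Of the 102 transcripts called lower with IL-17, 50 stayed below a mean of 1 CPM in both siR-2 groups, as given above. Lbh, a transcription cofactor of heart development, was the best expressed of the 10 largest falls, with 437, 431 and 452 CPM untreated and 158, 159 and 161 CPM with IL-17 (log2 fold change −1.47, SE 0.03, adjusted p = 9.04e-23). Gadd45g, a growth arrest and stress gene, fell from 19.5, 21.1 and 22.6 CPM to 7.24, 7.20 and 8.29 CPM (log2 fold change −1.48, SE 0.07). Akap5, a scaffold of protein kinase A, fell from 6.85, 5.11 and 7.19 CPM to 2.56, 1.73 and 1.98 CPM (log2 fold change −1.61, SE 0.13). Cd300lb fell from 5.99, 7.29 and 7.04 CPM to 1.94, 2.72 and 2.64 CPM. Each IL-17 group lay below the untreated one without overlap, which the ranking of the 10 largest falls required, so it adds no support. Ppm1e, a protein phosphatase, Ldb3, a Z-disc protein, Dusp27, and Bnc1, the transcription factor basonuclin, fell by 1.69, 1.55, 1.53 and 1.49 on the log2 scale from means of 3.18, 2.35, 1.17 and 1.60 CPM. Ugt1a2, a glucuronosyltransferase whose reads may be shared with near-identical genes of its locus, was at 2.31, 1.65 and 2.57 CPM untreated and 0.227, 0.0344 and 0.139 CPM with IL-17 (log2 fold change −4.02, adjusted p = 0.015). Its call was lost without IL-17 replicate 2 or 3 (adjusted p = 0.0642 and 0.066).

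The response was then set beside that of Scrambled and siR-1 cells, to ask whether siR-2 cells answered IL-17 by a different factor. Scrambled gave 231 genes called higher (1.09%) and 65 lower (0.306%). Of the siR-2 genes called higher, 130 were also called there, which is 50.2% of the siR-2 list and 56.3% of the Scrambled list. For siR-1, with 260 called higher (1.23%) and 119 lower (0.561%), 168 were shared, 64.9% of the siR-2 list and 64.6% of the other. Of the genes called lower, 22 were shared with Scrambled (21.6% and 33.8%) and 36 with siR-1 (35.3% and 30.3%). A call in one response alone is no test of a difference, and the difference itself was tested for each gene. The signed difference, siR-2 minus Scrambled on the log2 scale, was positive for 16 called genes (0.0754% of those tested) and negative for 19 (0.0895%). A negative difference can be a smaller rise, a deeper fall as for Mycn, or a change of direction as for Socs3. No counts are given without the 3 Scrambled libraries with hepatocyte transcripts, since only replicate 2 of Scrambled with IL-17 then remains. Of the 259 genes called higher under siR-2, 25 were among the called differences from Scrambled and 8 among those from siR-1.

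**Figure D4:**
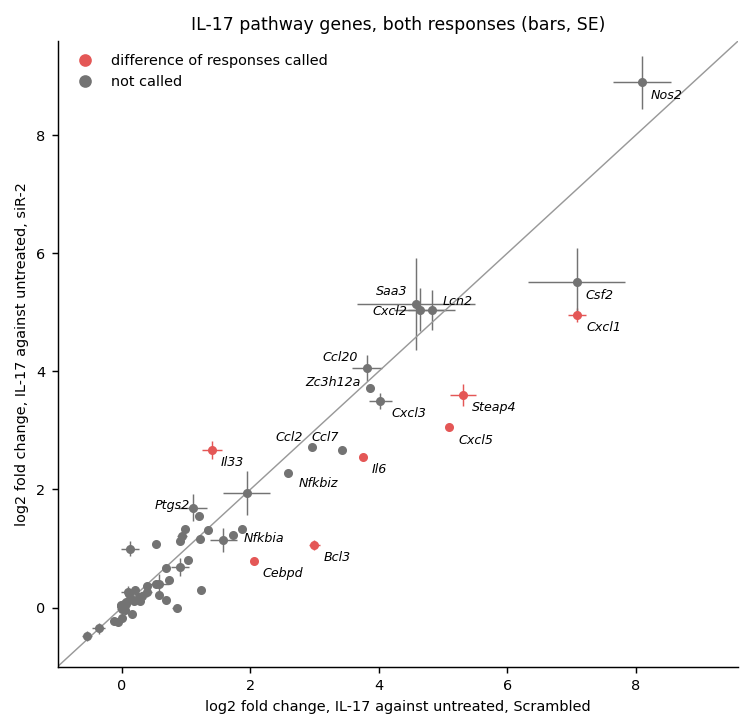
Log2 fold change with IL-17 under siR-2 (vertical) against that in Scrambled (horizontal) for 66 genes of the IL-17 receptor, IL-17 target and NF-κB lists. Each had a mean of at least 1 CPM in a siR-2 group or in Scrambled with IL-17. Genes at 0 in all untreated Scrambled libraries, such as Ccl11, are not drawn. Bars are SE and the line marks equal responses. Of the genes drawn, the 7 in red had responses that differed with an adjusted p up to 0.05 and by at least 1. Cxcl1, Cxcl5, Steap4, Bcl3, Il6 and Cebpd lie below the line and Il33 above it.

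Among the negative differences were genes of the IL-17 and NF-κB lists that rose under both siRNAs, by a smaller factor under siR-2, such as Cxcl1, Cxcl5 and Bcl3. Cxcl1 rose in Scrambled from 2.75, 2.57 and 1.76 CPM to 342, 309 and 309 CPM, and the response under siR-2 was smaller by 2.13 on the log2 scale (SE 0.17, adjusted p = 8.07e-06). Its IL-17 level under siR-2, 193 to 204 CPM, was also below that of Scrambled. Steap4 stood at 0.776, 0.391 and 1.11 CPM in untreated Scrambled, with 29.05 to 31.6 CPM in Scrambled with IL-17 and 17.34 to 19.0 CPM under siR-2 (difference −1.71, adjusted p = 0.00196). Without the 3 Scrambled libraries the differences were −1.92 for Cxcl1, −1.96 for Cxcl5, −1.95 for Bcl3 and −2.04 for Steap4. That fit holds only replicate 2 of Scrambled with IL-17.

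Cxcl1, Steap4, Cxcl5, Il6, Bcl3 and Cebpd all had untreated siR-2 libraries above the untreated Scrambled libraries. For Cxcl5, Il6, Bcl3 and Cebpd the IL-17 level under siR-2 was above that of Scrambled as well. Cxcl5 in Scrambled went from 29.8, 29.6 and 27.9 CPM to 1022, 954 and 1006 CPM, so both the untreated and the IL-17 libraries of siR-2 lay above those of Scrambled (difference of responses −2.04, SE 0.06). Il6 in Scrambled went from 20.2, 19.3 and 18.7 CPM to 278.7, 250.3 and 253 CPM (difference −1.19, adjusted p = 5.45e-13). Counted in CPM and not as a factor, Il6 rose by 645 CPM under siR-2 and by 241 CPM in Scrambled. Bcl3 stood in Scrambled at 4.47, 3.57 and 3.21 CPM untreated and 29.6, 32.4 and 27.9 CPM with IL-17 (difference −1.94, SE 0.12). Cebpd stood at 46.6, 43.1 and 45.8 CPM and at 186.5, 199 and 176 CPM (difference −1.26, adjusted p = 5.45e-13). Of the 19 genes with a negative difference, 11 were called higher under siR-2 and 16 in Scrambled. For Il6, Cxcl5, Fgf23 and Ccl11 the rise in CPM was larger under siR-2 although the factor was smaller. Ccl11 was at 0 in all 3 untreated Scrambled libraries and at 0.174, 0.124 and 0.0985 CPM with IL-17, so no fold is given there. Its call as different was lost without any 1 of 11 single libraries (adjusted p 0.0525 to 0.164), in DESeq2 (adjusted p = 0.0596), with a replicate block (adjusted p = 0.0573) and with estimated counts divided by 6 (adjusted p = 0.582).

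Socs3 went in opposite directions. In Scrambled it rose from 15.8, 12.9 and 16.0 CPM to 30.7, 30.6 and 28.3 CPM, and under siR-2 it fell as given above (difference −1.59, SE 0.10, adjusted p = 9.43e-11). In siR-1 cells it was at 15.5 to 18.1 CPM untreated and 14.98 to 16.9 CPM with IL-17. Mycn, a MYC family factor, fell under siR-2 from 13.6, 14.1 and 13.7 CPM to 5.78, 5.54 and 5.11 CPM, and the response was lower than in Scrambled by 1.07 on the log2 scale. Map3k8, a kinase upstream of MEK, rose by 0.83 under siR-2 and by 2.195 in Scrambled (difference −1.37). Serpina3f, Serpina3g, Serpina3h and Serpina3i, of the protease inhibitor cluster at chr12:104127996-104414329, rose under siR-2 by 3.36, 1.20, 1.94 and 1.86 on the log2 scale. Their differences from Scrambled were −1.15, −1.39, −1.31 and −1.40. Serpina3h is annotated as a transcribed pseudogene. These Serpina3 genes are near-identical copies that could share reads, so the split between them is uncertain.

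**Figure D5:**
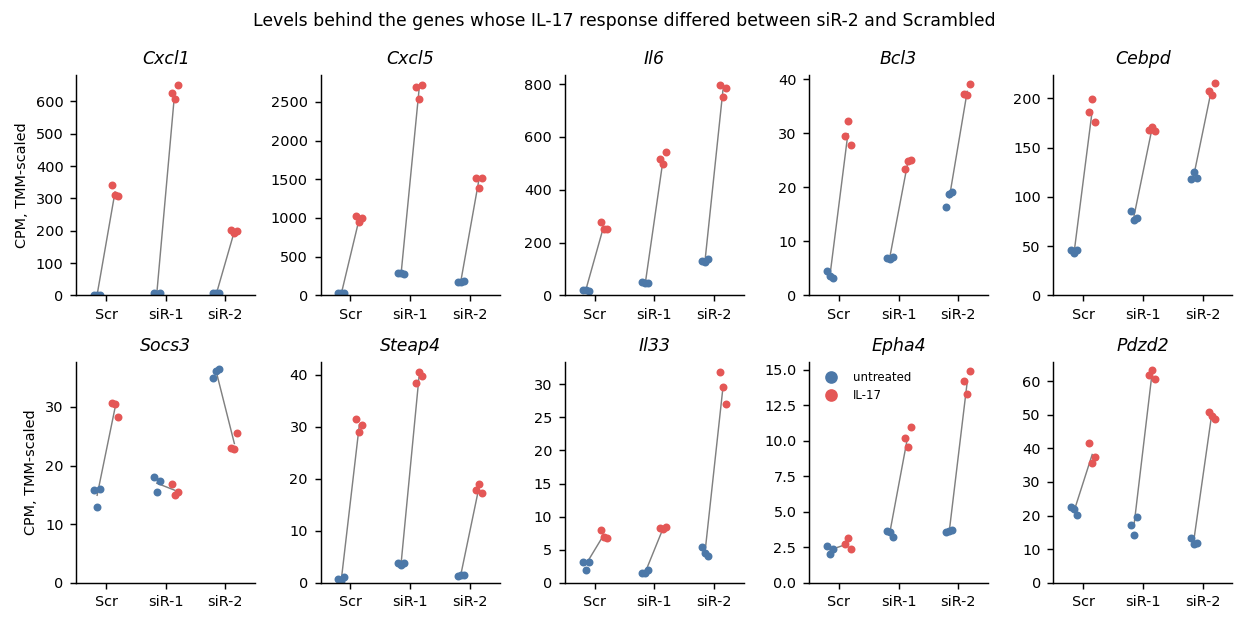
Levels in CPM (linear axes from 0, TMM-scaled) of 10 genes in Scrambled, siR-1 and siR-2 libraries, untreated (blue) and with IL-17 (red). Each point is a library, n = 3 a group, and lines join the group means. Cxcl1 is lowest with IL-17 under siR-2, at 193 to 204 CPM, and Il6 and Bcl3 are highest there both untreated and with IL-17. Socs3 falls under siR-2 and rises in Scrambled.

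Positive differences were found for genes outside the IL-17 lists, and for Il33. Il33 in Scrambled went from 3.13, 1.86 and 3.17 CPM to 7.96, 6.87 and 6.76 CPM, and the response under siR-2 was larger by 1.26 on the log2 scale (SE 0.21, adjusted p = 0.00107). Epha4, a receptor of ephrins, rose under siR-2 from 3.6, 3.68 and 3.699 CPM to 14.2, 13.3 and 14.9 CPM. In Scrambled it was at 2.57, 2.00 and 2.35 CPM and at 2.75, 3.13 and 2.35 CPM, groups that overlapped, and the difference was 1.70 (SE 0.16, adjusted p = 6.39e-08). Sox11, a transcription factor of progenitor cells, rose under siR-2 from 0.573, 0.431 and 0.466 CPM to 4.05, 4.56 and 3.54 CPM, and in Scrambled was at 0.609 to 0.833 CPM and 0.573 to 0.927 CPM (difference 2.96, SE 0.40). Pdzd2, a protein with PDZ domains, rose from 13.2, 11.6 and 11.9 CPM to 50.7, 49.6 and 48.6 CPM, by 2.02 on the log2 scale against 0.83 in Scrambled. Lpar4, a receptor of lysophosphatidic acid, rose by 1.43 under siR-2 and had a log2 fold change of −0.03 in Scrambled (difference 1.45). Without the 3 Scrambled libraries the differences were 1.49 for Epha4 and 2.69 for Sox11. Fmn2 and Rtl3, with differences of 2.27 and 1.77 over all libraries, were at 1.94 and 1.76 in that fit. Rtl3 lost its call without any 1 of 9 single libraries (adjusted p 0.0672 to 0.14) and with no filter on low counts (adjusted p = 0.0671).

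Phc3, a Polycomb protein, had the largest positive difference among called genes reaching 1 CPM, 4.07, but its libraries took 1 of 2 levels within groups. Under siR-2 it was at 11.7, 12.5 and 12.2 CPM untreated and at 13.8, 58.1 and 55.5 CPM with IL-17, and in Scrambled at 58.6 to 69.2 CPM and 11.3 to 14.3 CPM. siR-1 cells with IL-17 gave 15.9, 62.7 and 14.5 CPM. The call was lost without any 1 of 8 single libraries (adjusted p 0.0508 to 0.0601). Without the 3 Scrambled libraries the difference was 4.36.

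Against siR-1, which targets the same transcript, the signed difference was positive for 10 genes (0.0471%) and negative for 7 (0.033%). Cxcl1 again rose less under siR-2, by 1.69 on the log2 scale (SE 0.16, adjusted p = 8.38e-05), as siR-1 cells rose from 7.15, 5.04 and 6.60 CPM to 625, 608 and 651 CPM. Serpinb2, an inhibitor of plasminogen activators, rose under siR-2 from 22.3, 23.4 and 24.2 CPM to 183, 177 and 176 CPM, and under siR-1 from 3.39 to 3.902 CPM to 57.0 to 62.9 CPM (difference −1.10). Sox11 rose more than under siR-1 by 1.89 (adjusted p = 0.0112), A4galt, a glycolipid galactosyltransferase, by 1.09 and Adamts4 by 1.08. A4galt went under siR-2 from 4.797, 4.05 and 4.45 CPM to 49.3, 44.5 and 49.4 CPM and under siR-1 from 4.86 to 6.28 CPM to 26.9 to 29.1 CPM. Pag1, a membrane adaptor of Src family kinases, rose under siR-2 by 0.71 and fell by 0.61 under siR-1, both on the log2 scale (difference 1.32, adjusted p = 4.15e-07). Psd3, with 80.3 to 87.3 CPM untreated and 72.0 to 74.8 CPM with IL-17 under siR-2, rose under siR-1 from 11.7 to 14.3 CPM to 27.4 to 30.1 CPM (difference −1.33). Rnf122, a ubiquitin ligase, rose under siR-2 by 1.25 and Mmp10, a stromelysin, had −0.22 there (adjusted p = 0.48), with differences of −1.20 and −1.17. Without IL-17 replicate 2 of siR-2, the negative differences from siR-1 numbered 12 in place of 7.

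For other IL-17 targets no difference of the responses was called. Nos2 differed by 0.79 from Scrambled (SE 1.09, adjusted p = 0.937) and Cxcl2 by 0.40 (SE 0.57, adjusted p = 0.942). Zc3h12a differed by −0.13 (adjusted p = 0.564) and Nfkb1 by −0.02 (adjusted p = 0.969). Ccl7 and Nfkbia passed the adjusted p without reaching 2-fold, at −0.76 (adjusted p = 6.46e-08) and −0.49 (adjusted p = 4.89e-05). A p that misses the limit does not show that responses were equal, and for Nos2 and Cxcl2 the SE leaves room for more than a 2-fold difference.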

How the data were processed

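Poly(A)-selected RNA-Seq libraries of CFs were analysed from the deposited gene tables. According to the methods and labels, the authors trimmed reads with Cutadapt 3.7, checked them with FastQC 0.11.9, aligned them to GRCm38 with HISAT2 2.2.1 and assembled transcripts with StringTie 2.1.4. The authors deposited whole-number estimated counts per gene, not normalized. The step from StringTie coverage to these counts, the annotation release and the strand setting are not given in the sources used here. The commonest lowest value of a gene was 6, so 1 read pair was taken as 6 estimated counts, and 3 read pairs (18 estimated counts, 0.155 CPM in untreated siR-2) as the floor. Reads of antisense and overlapping genes may not be told apart.

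Tables were joined on the gene identifier. The 18 libraries of Scrambled, siR-1 and siR-2, untreated and with IL-17, were fitted together in edgeR 4.0.16 (R 4.3.3, limma 3.58.1) after filterByExpr and TMM scaling, with robust quasi-likelihood tests of the IL-17 response under siR-2 and of its difference from that of Scrambled and of siR-1. P values were adjusted by Benjamini-Hochberg over all 21219 genes tested. A gene was called with an adjusted p up to 0.05 and a log2 fold change of 1 or more in size. The scripts were tested on simulated data. DESeq2 1.42.0, other scalings and filters, a replicate block and leaving out each library were alternatives. Genes named are the 10 largest rises and falls among called genes reaching a mean of 1 CPM. For these, predicted genes and genes whose libraries overlapped between the groups were left out. Also named are genes that the study discusses, the largest changes of each list and the called differences. Others, given for contrast or role, were chosen after their values were seen. The comparisons, members and lists were chosen with earlier results of these data known. The effect of the siRNA on untreated cells was not tested here, and for some genes untreated levels are only set side by side. Per-sample columns of 8 heart libraries were not used. Results for a few genes of the lists are not reported here.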

Additional observations from a re-analysis of the deposited data

Results flagged for a closer look

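These results are given because the IL-17 response under siR-2 differed from that under another siRNA by a test of the difference itself (edgeR, adjusted p up to 0.05, difference of 1 or more in size on the log2 scale). Against Scrambled, the signed difference was positive for 16 genes and negative for 19. Among those reaching 1 CPM, the largest positive differences on the log2 scale were 4.07 for Phc3, 2.96 for Sox11, 2.27 for Fmn2, 1.77 for Rtl3 and 1.70 for Epha4. The largest negative differences were −2.13 for Cxcl1, −2.04 for Cxcl5, −1.94 for Bcl3 and −1.71 for Steap4. Ccl11 had a fitted value of −4.46, which depends on the prior count because its untreated Scrambled libraries are all at 0, and its call was lost without any 1 of 11 single libraries and in DESeq2.

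Against siR-1, the signed difference was positive for 10 genes and negative for 7. The log2 differences were 1.89 for Sox11, 1.32 for Pag1, 1.09 for A4galt and 1.08 for Adamts4. Negative differences were found for Cxcl1 (−1.69), Psd3 (−1.33), Rnf122 (−1.20), Mmp10 (−1.17) and Serpinb2 (−1.10).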

How the results depend on the processing

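With a fold limit of log2 0.585 in place of 1, 422 genes were called higher and 284 lower under siR-2, 42 differences from Scrambled were positive and 61 negative, and 29 and 19 from siR-1. With estimated counts divided by 6, 15288 genes were tested in place of 21219, and 6 differences from siR-1 were positive in place of 10. Without single libraries the calls ranged from 239 to 271 higher and 81 to 106 lower, the differences from Scrambled from 14 to 22 positive and 18 to 27 negative, and those from siR-1 from 7 to 14 positive and 6 to 12 negative, the 12 without siR-2 IL-17 replicate 2. DESeq2 called 321 higher and 135 lower. No direction reversed among the results and alternatives run. Differences from Scrambled that lost their call without single libraries were those of Phc3 (8 libraries), Rtl3 (9) and Ccl11 (11). Of the siR-2 and Scrambled libraries, the call held without siR-2 untreated replicate 1 for Ccl11, without siR-2 untreated replicate 2 and Scrambled untreated replicates 1 and 3 in turn for Rtl3, and without siR-2 IL-17 replicate 1 and each untreated Scrambled library in turn for Phc3. Without siR-1 untreated replicate 1 the Sox11 difference from siR-1 lost its call (1.40, adjusted p = 0.0637), and the differences of A4galt, Adamts4 and Mmp10 from siR-1 fell just below 1 in size without 1 library each for A4galt and Mmp10 and without either of 2 for Adamts4. The choice to leave out the 3 Scrambled libraries with hepatocyte transcripts was made after seeing the data.

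Replicate numbers did not pair the libraries. Deviations of untreated and IL-17 siR-2 libraries with the same number correlated at −0.013, 0.096 and −0.05, and of other pairs at −0.081 to 0.098. With a replicate block 258 genes were higher and 93 lower, 16 differences from Scrambled were positive and 18 negative, and 10 and 6 from siR-1.

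Genes under 0.155 CPM rest on 3 read pairs or fewer, and with 3 libraries a group small changes of such genes were not detectable at this depth.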
